A study of Mus musculus with 12 samples.

Results

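The effect of rhPBEF in mouse lung was measured as the average of 2 differences, the rhPBEF group minus the Control group and the rhPBEF & VALI group minus the VALI group. All 12 arrays of the series entered it, 6 with rhPBEF and 6 without, and the 2 differences share no array. It was computed for 18193 genes, each represented by 1 probe set. Here rhPBEF is the recombinant human form of pre-B-cell colony-enhancing factor, also called nicotinamide phosphoribosyltransferase, the enzyme that Nampt encodes.

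Control mice were given phosphate-buffered saline. Mice of the rhPBEF group received 20 µg of the protein per mouse into the trachea, in 1.5 µl of water per g of body weight. The VALI group, named for ventilator-associated lung injury, had 4 hours of mechanical ventilation with breaths of 30 ml per kg, and the rhPBEF & VALI group had both. All mice were 8 to 12 weeks old, each group had 3 arrays, and total lung RNA was hybridised to Affymetrix arrays. The labels give neither strain, sex, the time from instillation to collection nor any instilled fluid for the VALI mice. The carrier was saline in Control and water with rhPBEF, so carrier and protein cannot be told apart without ventilation. With ventilation, the labels give an instilled fluid only for rhPBEF & VALI, so instillation, carrier and protein cannot be told apart there either. No group analysed here was ventilated with small breaths. Separate mice are not named for the replicates, and the p-values therefore reflect only sample-to-sample spread, which may be technical.

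Inside cells, this enzyme makes the precursor from which mammalian cells rebuild NAD, and outside cells it has been described as a cytokine-like protein that rises in injured lung. Airspace inflammation usually runs through receptors of the Toll-like and cytokine families to the NF-kB transcription factors. Their targets include the chemokines that call neutrophils from blood, the cytokines that spread the signal, and the inhibitors that end it.

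Lung identity was plain in every array. Values are deposited log2 expression levels, on which 1 unit is a doubling, and the lung genes Sftpc (surfactant protein C, alveolar type 2 cells), Scgb1a1 (club cells) and Ager (alveolar type 1 cells) lay at 14.76 to 14.97, 14.82 to 15.02 and 14.27 to 14.55. Arrays of the same group correlated at 0.983 to 0.997. The mean of 13 skeletal muscle genes was 8.64 in rhPBEF replicate 2 and 7.93 in VALI replicate 3 against 5.98 to 6.27 in the other 10 arrays, and no skeletal muscle gene passed. VALI replicate 2 lay outside the other 11 arrays in the mean of 11 lists, widest in heat shock chaperones and immediate early genes. Without it the count of genes past the threshold changed in 5 of them, each given with its list. Counts also changed on other lists. Higher genes went from 7 to 10 for NF-kB targets and 6 to 7 for neutrophil markers. They went from 18 to 16 for acute phase genes, 10 to 8 for cytokine receptors, 5 to 3 for interferon-stimulated genes and 6 to 5 for Toll-like receptors. They went from 2 to 1 for NAD metabolism and airway secretory genes and 3 to 2 for lipid mediators. Lower genes went from 1 to 0 for NAD metabolism, ciliated and BMP genes. Counts without each array stand with the last results.

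Averaged over ventilation, 565 genes passed an adjusted p of 0.05 (limma, Benjamini-Hochberg), 3.11% of those tested. Of these, 331 were higher with rhPBEF (1.82%) and 234 lower (1.29%). Rises were the larger changes. The median rise among these genes was 0.79 on the log2 scale and the median fall was -0.37, and 120 genes were at least 2-fold higher against 4 at least 2-fold lower. Of the 15 steepest rises named by rule, 13 were genes of the inflammatory lists, led by chemokines. The others were Slc26a4 and Mab21l3. Mab21l3 lay at 5.07 to 5.22 in Control, 5.19 to 5.43 in VALI, 8.14 to 8.72 in rhPBEF and 7.27 to 8.32 in rhPBEF & VALI. With each array centred on its own median, 359 genes were higher and 141 lower, which moved the higher share from 58.6% to 71.8%. That share was 37.3% with array weights, 44.7% without rhPBEF & VALI replicate 3 and 48.2% without VALI replicate 3, and at an unadjusted p under 0.05 there were 1161 higher and 2549 lower genes. Which direction held more genes thus depended on these choices. The averaged difference over all genes had a median of -0.041.

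Neutrophil-attracting chemokines had the steepest rises. These are the ELR CXC chemokines, which act through the receptor Cxcr2. In Control arrays Cxcl3 was at 3.41, 3.78 and 3.61, in VALI arrays at 4.65, 5.30 and 3.88, in rhPBEF arrays at 10.95, 10.16 and 10.02, and in rhPBEF & VALI arrays at 11.25, 11.02 and 8.30. Every array with rhPBEF lay above every array without it, and the lowest of them was rhPBEF & VALI replicate 3. The averaged difference was 6.18 ± 0.46 (SE, 6 arrays against 6), 72.3-fold, with an adjusted p of 5.99e-05 in limma. All arrays without rhPBEF lay under 6.42, the 40th percentile of all probe sets, where signal limits the size of a fold. Within each ventilation status the exact permutation test of this gene, over 400 relabellings, gave p = 0.005, the smallest it can give. Cxcl3 was picked among genes whose groups did not overlap in either status, which fixes that p. Nothing is read from it.

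Cxcl2 was at 5.48, 5.33 and 5.31 in Control, 8.06, 9.53 and 6.80 in VALI, 12.82, 12.69 and 12.90 in rhPBEF and 13.18, 12.66 and 12.13 in rhPBEF & VALI. Both rhPBEF groups lay at a similar level, while Control and VALI lay at different levels. Its averaged difference was 5.98 ± 0.36 (adjusted p = 2.13e-05, limma), combining 7.43 without ventilation and 4.52 with it. Cxcl5 averaged 4.43 ± 0.43 and Cxcl1 3.70 ± 0.18, and Cxcl1 had the lowest adjusted p of all genes, 5.55e-06 in limma. The 3 probe sets of Cxcl1 gave averaged differences from 1.20 to 5.25, so its size depends on the probe set. Of the 6 ELR CXC chemokines tested, 4 rose, each in both ventilation statuses, and the list's median difference was 4.07. Beside this count, and the counts of higher genes on all lists below, stands 1.82% over all genes.

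Because the values of these chemokines moved so far, the DNA before their starts is shown. The lines give the RefSeq promoter windows of Cxcl3 (GRCm38.p6, chr5:90785851-90786150, plus strand), Cxcl2 (chr5:90903649-90903948, plus strand), Ccl20 (chr1:83116516-83116815, plus strand) and Saa3 (chr7:46715627-46715926, minus strand), the members with a window among the 5 steepest rises. Each runs from 250 bases before the start to 50 after it, read along the gene. Capitals mark matches, on either strand, to an NF-kB-like pattern of GGG, any 3 bases and TTCC.
Cxcl3: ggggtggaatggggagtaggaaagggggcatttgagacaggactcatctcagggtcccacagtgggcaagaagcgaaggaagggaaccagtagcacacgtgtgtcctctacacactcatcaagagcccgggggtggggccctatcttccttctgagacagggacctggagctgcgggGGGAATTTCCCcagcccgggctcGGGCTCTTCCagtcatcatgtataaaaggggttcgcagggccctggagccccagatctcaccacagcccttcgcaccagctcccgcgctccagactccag
Cxcl2: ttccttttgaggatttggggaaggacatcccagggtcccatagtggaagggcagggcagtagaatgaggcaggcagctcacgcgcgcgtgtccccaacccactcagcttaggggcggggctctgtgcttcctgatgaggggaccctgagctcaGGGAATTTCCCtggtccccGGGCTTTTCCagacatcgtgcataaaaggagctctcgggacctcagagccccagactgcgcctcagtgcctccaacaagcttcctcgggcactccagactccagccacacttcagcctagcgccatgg
Ccl20: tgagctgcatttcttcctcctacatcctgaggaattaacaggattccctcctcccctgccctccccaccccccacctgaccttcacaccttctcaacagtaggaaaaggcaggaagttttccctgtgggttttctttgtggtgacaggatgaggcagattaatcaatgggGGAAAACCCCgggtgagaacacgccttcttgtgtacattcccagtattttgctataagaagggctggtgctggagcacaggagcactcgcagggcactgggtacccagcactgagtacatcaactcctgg
Saa3: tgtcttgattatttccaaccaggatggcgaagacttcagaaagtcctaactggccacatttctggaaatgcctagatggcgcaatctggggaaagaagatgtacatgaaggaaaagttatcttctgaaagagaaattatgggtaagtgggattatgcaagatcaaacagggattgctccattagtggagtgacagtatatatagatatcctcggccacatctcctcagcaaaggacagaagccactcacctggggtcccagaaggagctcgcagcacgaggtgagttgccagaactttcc

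Cxcl3 and Cxcl2 each held 3 matches, of which a pair overlap on opposite strands within the same run of capitals and the other lies nearer the start. Ccl20 held 1 match, which reads along the opposite strand, and Saa3 held none. The 3 matches began 73, 72 and 50 bases before the start of Cxcl3 and 97, 96 and 78 bases before that of Cxcl2. Over all 32851 windows of this length, 5.56% held a match, and 6.83% of the 14452 tested genes with a window did. The share was 15.8% of the 265 higher genes with a window, 3.76% of the 186 lower ones, and 7 of the 12 of the 15 steepest rises that had one. These are counts of letters, not of bound sites.

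CC chemokines, which call monocytes and lymphocytes, rose for 8 of 18 tested (higher over all genes, 1.82%), with a list median of 1.12. The 8 were Ccl2, Ccl3, Ccl7, Ccl9, Ccl11, Ccl12, Ccl17 and Ccl20. Ccl20, the ligand of Ccr6, was at 7.49, 7.22 and 7.14 in Control, 7.28, 7.43 and 6.74 in VALI, 10.71, 10.57 and 12.22 in rhPBEF and 11.83, 11.49 and 11.07 in rhPBEF & VALI. The untreated groups overlapped each other and none of the treated arrays came within 3 units of them. Its averaged difference was 4.10 ± 0.27 (adjusted p = 2.77e-05, limma), 14.7-fold without ventilation and 19.9-fold with it. Ccl3 averaged 3.13 ± 0.42, Ccl12 2.34 ± 0.39 and Ccl2 2.03 ± 0.39.

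The other CXC chemokines moved less. Of 11 tested, 2 rose, and the list median was 0.32. Cxcl10, a ligand of Cxcr3 on T cells that interferons induce, averaged 3.44 ± 0.50 (adjusted p = 0.00491, limma), and Cxcl14 0.49 ± 0.10. Cxcl9, which shares that receptor, did not pass, at 1.17 ± 0.43 (adjusted p = 0.153, limma). Among 21 chemokine receptors 1 rose, Ccrl2, an atypical receptor without classical signalling, at 1.06 ± 0.16.

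**Figure D1:**
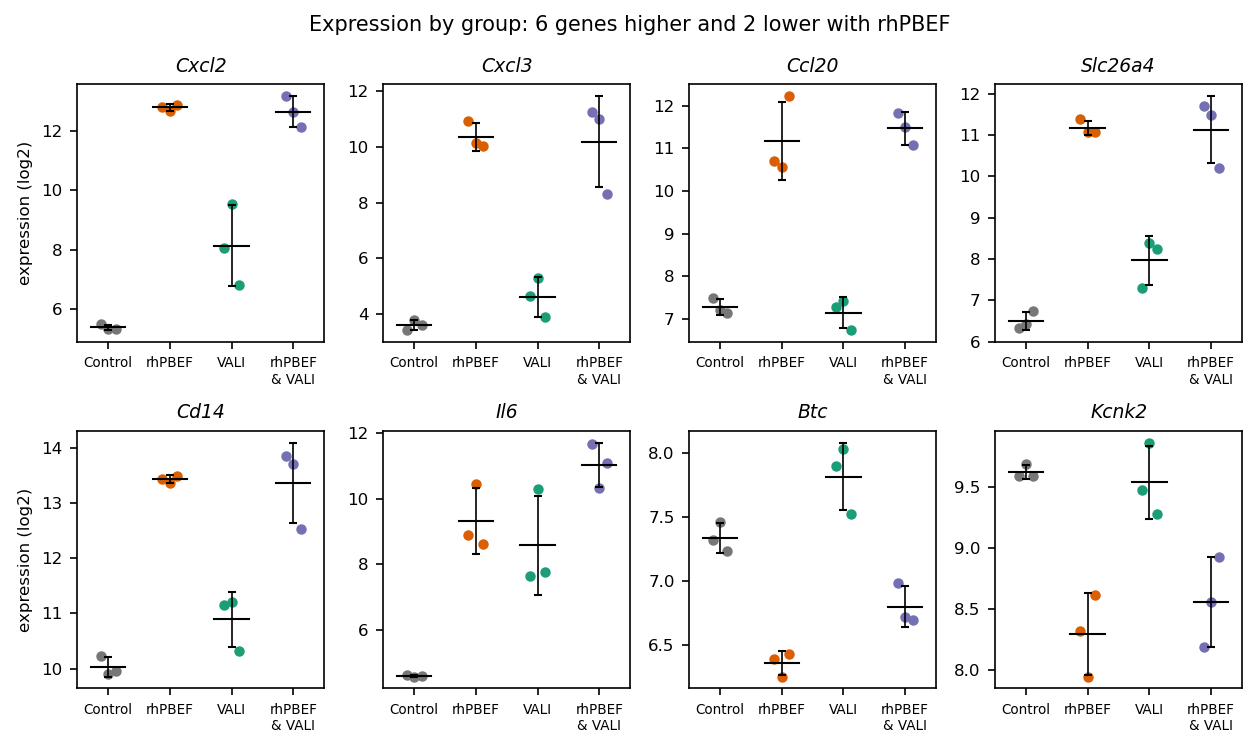
Log2 expression by group for 6 genes that rose and 2 that fell with rhPBEF. Each point is 1 array, the horizontal line is the group mean and the bar is 1 SD of 3 arrays. Cxcl2 sits at 12.69 to 12.90 with rhPBEF alone against 5.31 to 5.48 in Control, and Btc at 6.25 to 6.43 against 7.23 to 7.46.

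Cytokines rose for 9 of 27 tested (higher over all genes, 1.82%), with a list median of 0.40. They were Il6, Il1a, Tnf, Csf1, Csf2, Csf3, Il33, Tnfsf9 and Il1f9. Csf3, granulocyte colony-stimulating factor, which drives neutrophil production, was at 6.57, 5.73 and 6.06 in Control, 6.73, 6.48 and 6.15 in VALI, 8.38, 10.07 and 8.96 in rhPBEF and 10.43, 9.28 and 8.55 in rhPBEF & VALI. The treated arrays all lay above the untreated ones, and ventilation alone hardly separated from Control. Its rise was nearly equal in the 2 comparisons, 3.02 without and 2.97 with ventilation (average 2.99 ± 0.34, adjusted p = 0.00102, limma). Csf2, granulocyte-macrophage colony-stimulating factor, averaged 2.76 ± 0.43.

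Il6, the main inducer of the acute phase response, was at 4.63, 4.59 and 4.61 in Control, 7.65, 10.30 and 7.78 in VALI, 8.89, 10.45 and 8.61 in rhPBEF and 11.66, 10.32 and 11.09 in rhPBEF & VALI. VALI replicate 2 lay among the arrays with rhPBEF alone, so arrays with and without the protein overlapped across ventilation status, though not within it. The averaged rise was 3.58 ± 0.47 (adjusted p = 0.00273, limma), 26.2-fold without ventilation and 5.43-fold with it, and only the first passed alone (adjusted p = 0.00933 against 0.249, limma). The Control arrays lay under 6.42, where signal limits the size of the first fold. Il1a averaged 1.53 ± 0.21. Il1b did not pass, at 2.07 ± 0.51 (adjusted p = 0.0535, limma).

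Cytokine receptors and decoys rose for 10 of 29 and fell for 1 (over all genes, 1.82% higher and 1.29% lower). Tnfrsf9, a costimulatory receptor of the TNF receptor family, averaged 1.79 ± 0.22 (its 3 probe sets gave -0.06 to 3.09), and its ligand Tnfsf9 1.56 ± 0.29. Osmr, the oncostatin M receptor subunit, averaged 1.18 ± 0.16. The interleukin-1 decoy receptor Il1r2 averaged 1.92 ± 0.39 and the receptor antagonist Il1rn 1.68 ± 0.39 (0.34 to 1.68 over 3 probe sets). The receptor that fell was Tnfrsf21, also called death receptor 6, at 10.01, 10.01 and 10.10 in Control and 10.06, 10.03 and 9.73 in VALI against 9.17, 9.19 and 9.26 in rhPBEF and 9.49, 9.54 and 9.23 in rhPBEF & VALI. Its arrays did not overlap, and the averaged fall was -0.68 ± 0.07 (adjusted p = 0.000771, limma).

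On the Toll-like receptor pathway 6 of 24 genes rose (higher over all genes, 1.82%) and none fell, with a median of 0.17. Cd14, the co-receptor that hands bacterial lipids to Tlr4, was at 10.23, 9.90 and 9.96 in Control, 11.16, 11.21 and 10.32 in VALI, 13.44, 13.37 and 13.50 in rhPBEF and 13.86, 13.71 and 12.53 in rhPBEF & VALI. The treated arrays stood clear of the rest, and the averaged rise was 2.94 ± 0.22 (adjusted p = 6.44e-05, limma). Tlr2, a receptor for bacterial lipoproteins, averaged 1.60 ± 0.24, and Myd88, the adaptor most of these receptors share, 0.82 ± 0.15. Tlr1, Tlr13 and the adaptor Tirap also rose.

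Of 13 genes listed as NF-kB inhibitors or related regulators, 8 rose (higher over all genes, 1.82%). All 13 differences were above 0, also with arrays centred or quantile normalised, and the median was 0.61. Whether each of them restrains the signal here was not tested. The 8 were Nfkbia, Nfkbib, Nfkbie, Nfkbiz, Bcl3, Tnfaip3, Tnip1 and Zc3h12a. Tnfaip3, the A20 enzyme that edits ubiquitin chains to end the signal, was at 9.11, 8.95 and 9.75 in Control, 10.01, 10.48 and 9.89 in VALI, 11.44, 11.96 and 11.54 in rhPBEF and 12.54, 11.98 and 11.34 in rhPBEF & VALI. The arrays with the protein lay above all others, at an average of 2.10 ± 0.21 (adjusted p = 0.000513, limma). Zc3h12a, an RNase that degrades cytokine messages, averaged 1.73 ± 0.13, close to equal without (1.81) and with (1.64) ventilation.

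Of the 4 subunits tested, Relb (1.52 ± 0.19) and Nfkb2 (1.32 ± 0.20), partners in the noncanonical branch, rose. The other probe set of Nfkb2 gave 0.50. Rela and Rel did not pass, at 0.32 ± 0.09 (adjusted p = 0.0767, limma) and 0.33 ± 0.32. Among 22 NF-kB targets 7 rose (higher over all genes, 1.82%), with a median of 0.60. Cd83, a surface marker of activated dendritic cells, averaged 2.55 ± 0.30, Tnfaip2 2.38 ± 0.16, the anti-apoptotic Birc3 1.60 ± 0.17 and the mitochondrial superoxide dismutase Sod2 1.41 ± 0.16. Icam1, to which leukocytes bind on endothelium, was already high at 12.08 to 12.27 in Control and averaged 1.06 ± 0.13. With Cd44 (0.82 ± 0.11), it was 1 of 2 among 15 adhesion genes that rose.

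Acute phase and secreted defence genes held the highest count of any list, 18 of 26 higher and none lower, with a median of 1.07. Beside that count stands 1.82% over all genes. Saa3, a serum amyloid A made in lung as well as liver, was at 7.83, 7.44 and 7.55 in Control, 9.94, 8.83 and 8.83 in VALI, 13.42, 13.17 and 11.74 in rhPBEF and 13.92, 13.69 and 11.09 in rhPBEF & VALI. All treated arrays were above the others, with replicate 3 the lowest of both treated groups. The averaged rise was 4.43 ± 0.47 (adjusted p = 0.00073, limma). Saa1 rose by 3.32 ± 0.68, the acute phase glycoprotein Orm1 by 2.60 ± 0.37 and hemopexin (Hpx), which binds heme, by 2.21 ± 0.24. Ch25h, which makes an antiviral oxysterol, rose by 2.52 ± 0.25. Steap4, a metalloreductase, rose by 3.30 ± 0.22, and Fgg, the fibrinogen gamma chain, by 1.53 ± 0.11.

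Feedback genes of cytokine signalling rose for 5 of 13 (higher over all genes, 1.82%). They were Socs3, which blocks interleukin-6 receptor signalling, at 1.72 ± 0.25, the phosphatase Ptpn2 at 1.12 ± 0.12, the kinase Pim1 at 1.15 ± 0.19, and Socs2 and Stat5a. The last pair, at 0.32 ± 0.07 and 0.40 ± 0.09, were named after their values were seen. Socs3 differed by 2.65 without ventilation and 0.79 with it (adjusted p of the interaction 0.998, limma), and VALI arrays already stood at 11.47, 12.76 and 10.93 against 9.35 to 9.57 in Control. Metallothioneins and antioxidant genes rose for 8 of 19, including Mt2 (1.09 ± 0.20), a metal-binding thiol protein, the cystine importer Slc7a11 (1.28 ± 0.27), the zinc importer Slc39a14 (1.51 ± 0.34) and glutathione reductase, Gsr (0.63 ± 0.11). The other probe set of Slc7a11 gave 0.17, and the 4 of Slc39a14 gave 0.52 to 1.51. Without VALI replicate 2, which had the lowest mean of the 19 genes (11.44 against 11.48 to 12.22), 7 rose and the list median went from 0.43 to 0.31.

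Interferon-stimulated genes differed in 1 direction, with a small median, and unevenly among the treated arrays. Their mean level was 8.68 in rhPBEF replicate 3 and 8.67 in rhPBEF & VALI replicate 3, below VALI replicates 1 and 2 (8.79 and 8.70). The other treated arrays lay at 9.27 to 9.59, and Control at 8.33 to 8.54. All 26 differences were above 0, also with arrays centred or quantile normalised, with a median of 0.41, and 5 passed. These were Cxcl10, Gbp2 (1.46 ± 0.32), Irgm1 (0.91 ± 0.20), Gbp3 (0.84 ± 0.20) and Ifit3 (0.66 ± 0.14), the last pair named after their values were seen. Gbp2, a guanylate-binding protein that attacks vacuoles holding microbes, was at 9.71, 9.74 and 10.12 in Control, 10.56, 9.89 and 9.74 in VALI, 11.55, 11.21 and 10.67 in rhPBEF and 12.40, 12.27 and 10.43 in rhPBEF & VALI. The 2 treated replicates numbered 3 were again the lowest of their groups, and the rhPBEF & VALI one fell below VALI replicate 1. Iigp1, at 1.56 ± 0.43, did not pass (adjusted p = 0.079, limma).

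The plot of list members sets these groups side by side.

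**Figure D2:**
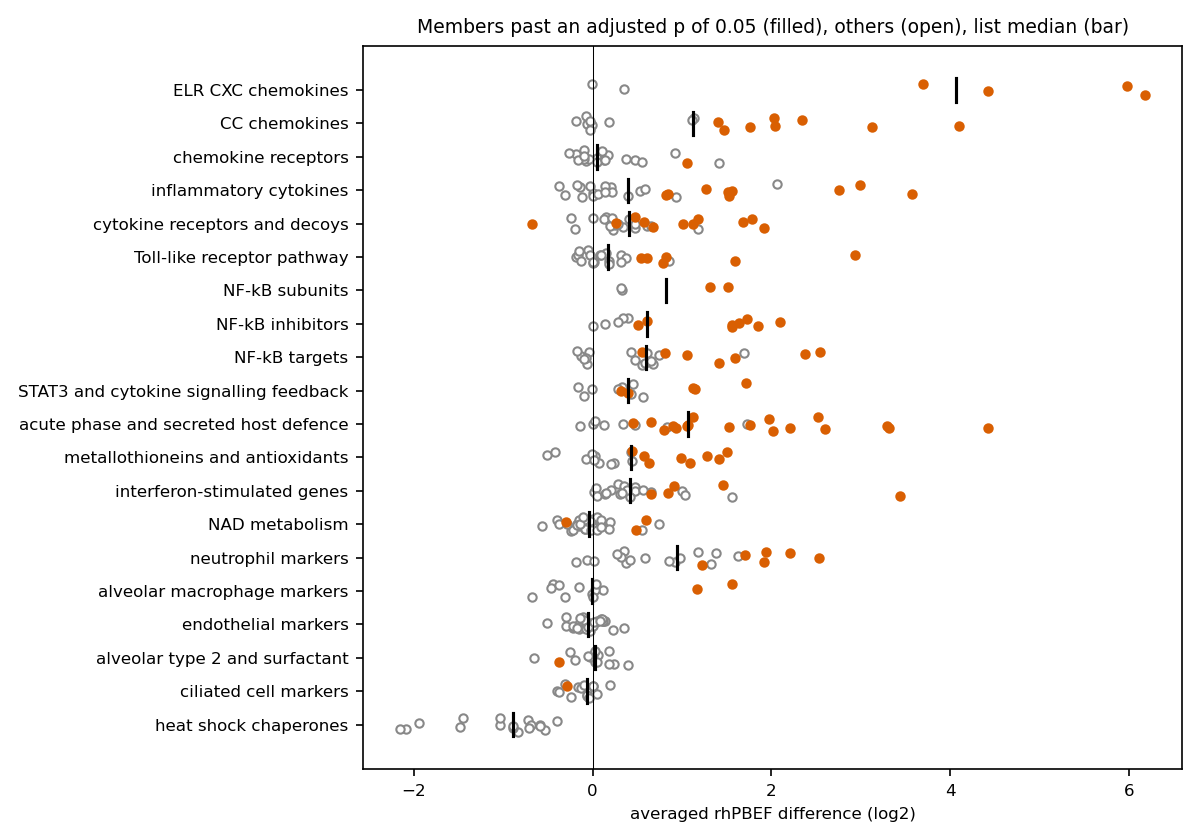
Averaged rhPBEF difference (log2) of every tested member of 20 gene lists. Filled points passed an adjusted p of 0.05, open points did not, and the black bar is the list median. Medians run from 4.07 for ELR CXC chemokines to -0.89 for heat shock chaperones, where no point is filled.

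Of 22 neutrophil markers, 6 rose for the average (S100a8, S100a9, Clec4e, Il1r2, Slfn4 and Slfn1), beside 1.82% over all genes. The list median was 1.45 without ventilation against 0.33 with it. The mean level of the 22 genes was 7.42 to 7.62 in Control, 9.02 to 9.36 in rhPBEF, 8.05 to 9.59 in VALI and 8.75 to 10.24 in rhPBEF & VALI. The VALI arrays were thus already near the treated level, except replicate 3 at 8.05. S100a9, a calcium-binding protein abundant in neutrophils, was at 9.88, 9.20 and 9.98 in Control and 13.56, 12.87 and 13.07 in rhPBEF, but at 13.63, 13.44 and 10.93 in VALI and 13.87, 12.76 and 12.55 in rhPBEF & VALI. The ventilated groups overlapped. Its differences were 3.48 without ventilation and 0.39 with it, and its interaction had an unadjusted p of 0.0042 and an adjusted p of 0.998 (limma). In whole lung, more neutrophils and more RNA per neutrophil cannot be told apart. When 1 array was left out, 0 to 9 of these 22 genes passed, with 0 without Control replicate 1, Control replicate 2, rhPBEF replicate 1 or rhPBEF & VALI replicate 2, and 9 without rhPBEF & VALI replicate 3. The part of neutrophil RNA in the other results was not tested.

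Few markers of other cells passed. Of 13 alveolar macrophage markers, the scavenger receptor Marco (1.56 ± 0.22) and Plet1 (1.17 ± 0.12) rose, while the list median was -0.01 and Siglecf, the sialic acid receptor that marks these cells, did not pass at -0.68 ± 0.17 (adjusted p = 0.0517, limma). None of 16 monocyte and tissue macrophage markers, 17 T and NK cell markers, 31 endothelial markers or 12 alveolar type 1 markers passed (limma, adjusted p), and 2, 3, 2 and 2 of them had an unadjusted p under 0.05. Over all 18193 genes, 3710 had an unadjusted p under 0.05 (limma). Among 12 B cell markers 1 rose, Fcer2a (0.68 ± 0.12), the low-affinity IgE receptor. Of 15 alveolar type 2 genes 1 fell, Cebpa (-0.37 ± 0.07), a transcription factor of alveolar maturation, and of 20 ciliated cell genes 1 fell, Dnaic1 (-0.28 ± 0.07), a dynein arm component. Among 14 airway secretory genes the C-type lectin Reg3g (0.90 ± 0.19) and haptoglobin, Hp (0.45 ± 0.08), rose, and both also sit on the acute phase list. Beside these counts of 0 to 2 stands 3.11% over all genes, and nothing is read from them about the cell types. VALI replicate 2 lay at 8.30 in the mean of the B cell markers against 7.28 to 7.98 in the other arrays, and at 11.85 in that of the alveolar type 2 genes against 12.02 to 12.26. Without it 1 B cell marker rose and 1 alveolar type 2 gene fell, as with it, and the medians went from -0.05 to 0.09 and from 0.03 to -0.03. The alveolar macrophage mean was 9.49 in that array against 9.57 to 10, and without it 2 of those markers rose and 1 fell.

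Ion transport genes included 1 of the steepest rises of all. Slc26a4, pendrin, an anion exchanger of airway epithelium, was at 6.32, 6.43 and 6.75 in Control, 7.29, 8.39 and 8.23 in VALI, 11.38, 11.08 and 11.07 in rhPBEF and 11.71, 11.48 and 10.20 in rhPBEF & VALI. Treated and untreated arrays stood well apart, and the averaged rise was 3.92 ± 0.26 (adjusted p = 2.77e-05, limma). The chloride-loading cotransporter Slc12a2 rose by 0.39 ± 0.06. Kcnk2, the background potassium channel TREK-1, fell by 1.15 on the log2 scale (SE 0.15, adjusted p = 0.00235, limma), from 9.59, 9.69 and 9.59 in Control and 9.47, 9.86 and 9.28 in VALI to 8.32, 7.95 and 8.62 in rhPBEF and 8.19, 8.56 and 8.93 in rhPBEF & VALI. The other 15 of 18 fluid and ion transport genes did not pass, and the list median was 0.02.

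Falls were led by Krtap17-1, which encodes a keratin-associated protein, at -1.53 ± 0.18 (adjusted p = 0.00111, limma). It was at 8.94, 8.50 and 8.07 in Control, 9.80, 9.80 and 9.54 in VALI, 7.98, 8.00 and 7.39 in rhPBEF and 7.11, 7.17 and 7.82 in rhPBEF & VALI. Its fall was steeper with ventilation (-2.35) than without (-0.71). The interaction p was 0.000686 unadjusted and 0.998 adjusted (limma), the smallest once symbols of uncharacterised transcripts were left out. The VALI arrays stood above Control and the rhPBEF & VALI arrays below it.

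Btc, betacellulin, a ligand of the epidermal growth factor receptor, fell by nearly the same amount in both statuses. It was at 7.32, 7.46 and 7.23 in Control and 6.39, 6.25 and 6.43 in rhPBEF, and at 7.90, 8.03 and 7.52 in VALI and 6.98, 6.72 and 6.69 in rhPBEF & VALI. No array overlapped across treatment, and the differences were -0.98 without and -1.02 with ventilation (average -1.0 ± 0.09, adjusted p = 0.000312, limma). Epiregulin (Ereg), another ligand of that receptor, rose by 1.15 ± 0.24, and the other 11 of the 13 ligands and receptors did not pass. Grb14 and Grb7, adaptors that bind receptor tyrosine kinases, fell by 0.80 and 0.65 on the log2 scale.

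Other falls among the 15 steepest included epithelial and cytoskeletal genes. Fgfbp1, a carrier that releases fibroblast growth factors, averaged -0.93 ± 0.16 and Krt19, a keratin of simple epithelia, -0.64 ± 0.09. The motor Myo5c averaged -0.76 ± 0.16, the membrane-shaping adaptor Baiap2l1 -0.71 ± 0.11 and the Cdc42 effector Cdc42ep3 -0.70 ± 0.13. Amz1, a metallopeptidase, averaged -0.70 ± 0.11, Ppp2r2b, a regulatory subunit of protein phosphatase 2A, -0.62 ± 0.10, Gprin3 -0.86 ± 0.16 and Tuft1 -0.62 ± 0.14. Krt19 remained among the brighter genes throughout, at 12.17 to 12.74 without rhPBEF and 11.41 to 12.00 with it. Tissue factor, F3, which starts coagulation, averaged -0.58 ± 0.10 and was the 1 gene of 21 on the coagulation list to pass, and Bambi, a decoy receptor, averaged -0.53 ± 0.12 and was the 1 of 21 on the BMP list.

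Lipid mediator genes went both ways. Of 24, Ptges (1.31 ± 0.25), the inducible prostaglandin E synthase, Ptger4 (0.81 ± 0.12), a receptor for its product, and the prostacyclin receptor Ptgir (0.84 ± 0.19) rose. Ltc4s (-0.55 ± 0.11) and Lta4h (-0.27 ± 0.06), enzymes of leukotriene synthesis, fell, the latter named after its values were seen. Among 29 immediate early genes Zfp36 (0.77 ± 0.16), which marks cytokine messages for decay, and Cebpd (0.76 ± 0.11), a transcription factor of the acute phase, rose. The mean of the 29 was 11.70 in VALI replicate 2 against 10.09 to 11.02 in the other arrays, and without that array 6 rose and the list median went from -0.01 to 0.16. Single genes passed on 3 further lists, with Bhlhe40 (0.80 ± 0.13) of 18 clock genes (2 without VALI replicate 2), Cyp2s1 (-0.35 ± 0.08) of 17 cytochrome P450 genes and the protease Adamts4 (2.87 ± 0.47) of 22 fibroblast and matrix genes. For these lists, as for the other lists above with 1 or 2 genes past the threshold, the background is 3.11% over all genes, and nothing is read from such counts.

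The mouse gene for the instilled protein itself did not pass. Nampt was at 10.54, 10.60 and 10.36 in Control, 10.64, 10.44 and 10.63 in VALI, 10.56, 10.66 and 10.59 in rhPBEF and 10.88, 11.11 and 10.62 in rhPBEF & VALI. Only the ventilated mice with rhPBEF held values above 10.66, and the averaged difference was 0.20 ± 0.08 (adjusted p = 0.197, limma, exact permutation p = 0.05). The 3 probe sets of Nampt gave averaged differences from 0.20 to 0.33, and the one used gave the smallest. Of 34 genes of NAD metabolism, Nadk (0.49 ± 0.09), which makes NADP, and Parp9 (0.60 ± 0.13) rose and Nadsyn1 (-0.30 ± 0.07), the NAD synthetase, fell, the last named after its values were seen. The list median was -0.04, close to that of all genes, and the share that passed in either direction compares with 3.11% over all genes.

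Heat shock chaperones were lower with rhPBEF in every one of 17 genes, also with arrays centred or quantile normalised. None passed (limma, adjusted p), while 12 had an unadjusted p under 0.05. Beside that count, 2549 of all 18193 genes were lower at an unadjusted p under 0.05 (limma). The list median was -0.89. Hsph1, a partner of Hsp70, had the largest difference, -2.15 ± 0.63 (adjusted p = 0.0889, limma), and was at 11.06, 11.65 and 11.89 in Control, 11.12, 14.45 and 9.66 in VALI, 9.54, 9.20 and 9.02 in rhPBEF and 9.99, 10 and 9.16 in rhPBEF & VALI. Without ventilation the groups stood apart, while the VALI arrays spanned nearly 5 units. The mean of the 17 genes was 10.38 to 10.97 in rhPBEF and 11.51 to 11.86 in Control, and 10.36 to 11.12 in rhPBEF & VALI against 11.51, 13.48 and 10.73 in VALI. Without VALI replicate 2, the list median was -0.48 and 4 of the 17 fell.

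**Figure D3:**
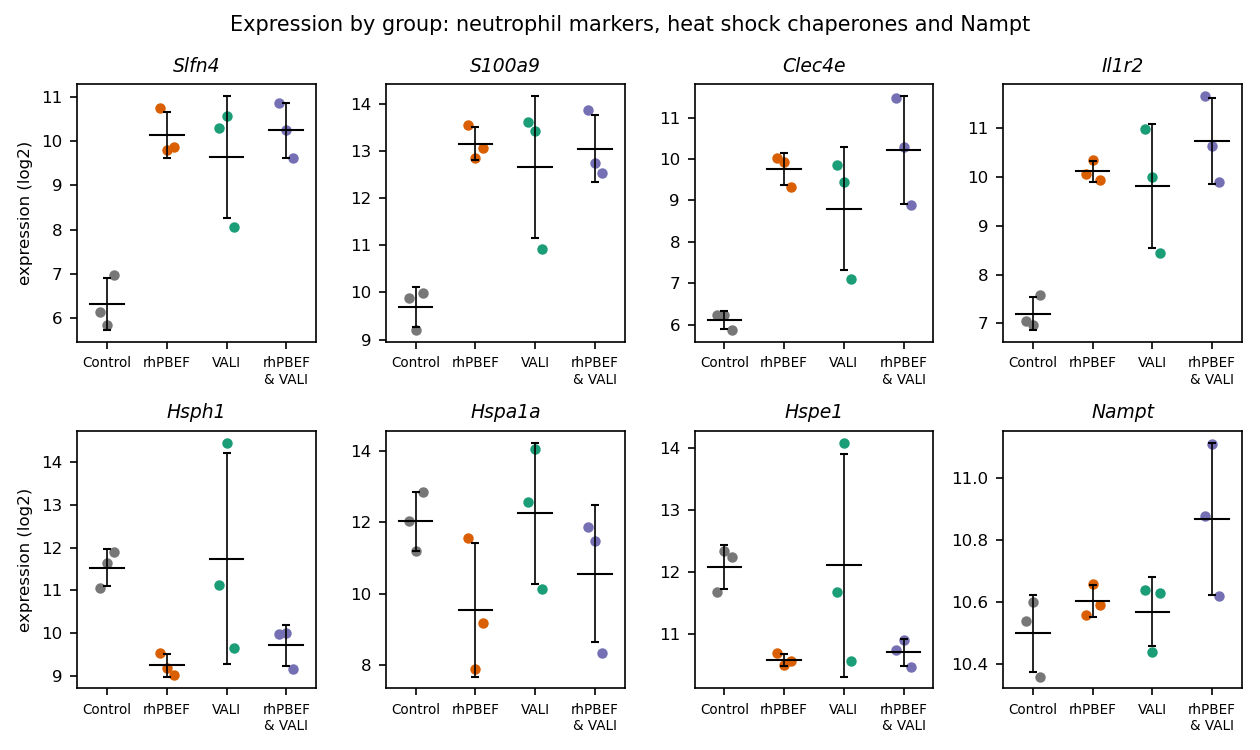
Log2 expression by group for 4 neutrophil markers, 3 heat shock chaperones and Nampt. Each point is 1 array, the horizontal line is the group mean and the bar is 1 SD of 3 arrays. The VALI arrays run from 10.93 to 13.63 for S100a9 and from 9.66 to 14.45 for Hsph1.

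Tested alone, the 2 comparisons called fewer genes. Without ventilation 142 genes passed (0.781%), 114 higher and 28 lower, and with ventilation 42 (0.231%), 40 higher and 2 lower. Of the 565 genes of the average, 35 passed in both, 103 only without ventilation, 7 only with it and 420 in neither. The 2 comparisons share no array, but each gene's variance estimate came from all 12, so passing in one is not independent of passing in the other and only signs and sizes are set side by side. Of the 142 genes called without ventilation, 141 had the same sign in the ventilated arrays, with a median size of 1.25 against 0.74. All 42 genes called with ventilation had the same sign in the unventilated arrays, at a median size of 1.45 against 1.47. Over all genes 67.6% had the same sign in both.

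The 420 genes that passed only for the average comprised 212 higher and 208 lower. Without and with ventilation the differences were 2.89 and 2.84 for Adamts4, 2.84 and 2.68 for Csf2 and 2.51 and 2.70 for Orm1. Csf2 was at 7.71, 7.57 and 6.82 in Control, 7.21, 7.25 and 6.84 in VALI, 10.98, 9.67 and 9.97 in rhPBEF and 10.82, 10.51 and 8.00 in rhPBEF & VALI. The lowest treated array, again rhPBEF & VALI replicate 3, still lay above every untreated one. Saa1 and Ccl17 (2.04 ± 0.43), a ligand of Ccr4, completed the rises. The falls were Fgfbp1, the amino acid transporter Slc6a15 (-0.89 ± 0.17), Gprin3, the secreted Lgi3 (-0.85 ± 0.18) and Grb14.

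No gene passed for the interaction, the difference between the 2 statuses, so 0% were called (limma, lowest adjusted p 0.998). At an unadjusted p under 0.05 there were 449 genes, 57 of them among the 565. With symbols of uncharacterised transcripts left out, the next smallest p after Krtap17-1 was that of Fgg (2.03 without and 1.03 with ventilation). It was followed by Kcnmb1, a subunit of calcium-activated potassium channels (-0.48 and 0.08), Traf1 (-0.51 and 0.38) and Lrrfip1 (0.34 and -0.21). Among the 331 rises the median was 0.85 without and 0.69 with ventilation, and among the 234 falls -0.42 and -0.32. Of the 565 genes, 379 changed more without ventilation, and that both statuses share a sign in all 565 is partly fixed by the choice of genes.

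**Figure D4:**
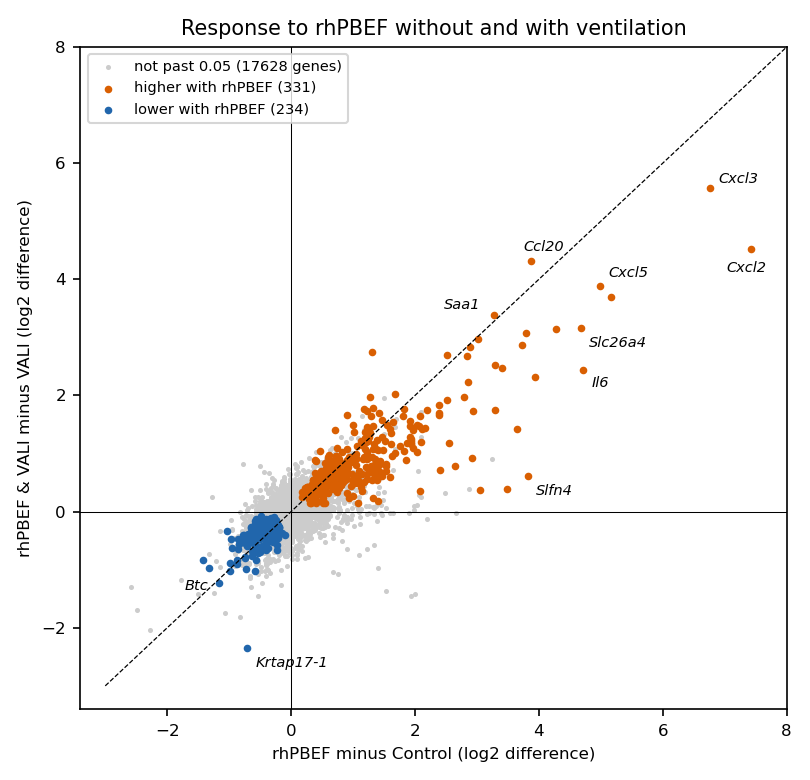
Difference with rhPBEF for each of 18193 genes, without ventilation (horizontal axis, log2) and with it (vertical axis, log2). Orange points rose and blue points fell for the average, grey points did not pass, and the dashed line marks equal differences. Cxcl2 lies at 7.43 and 4.52, below the line, and Ccl20 at 3.88 and 4.31, above it.

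Across all treated arrays, 287 of the 565 genes (182 rises and 105 falls) did not overlap between the 6 arrays with rhPBEF and the 6 without, against 2.38% of all genes. Choosing the genes on the same arrays partly fixes that count, and nothing is read from it. The treated arrays differed in size of response. Over the 331 rises, the median difference from the untreated mean of the same status was 0.90, 0.99 and 0.69 in rhPBEF replicates 1, 2 and 3 and 1.0, 0.79 and 0.36 in rhPBEF & VALI replicates 1, 2 and 3. The array rhPBEF & VALI replicate 3 was the lowest of its group in 291 of the 331 and rhPBEF replicate 3 in 203. Beside this stands the beta-actin control of RNA quality, the log2 level at the message's 3′ end minus that at its 5′ end, which was 0.543 and 0.471 in these 2 arrays and 0.353 to 0.416 in the other 10. On the Gapdh control the same difference was 0.095 in rhPBEF & VALI replicate 3, the highest of all arrays. It was -0.021 in rhPBEF replicate 3, within the -0.114 to 0.064 of the other 10. The part of RNA quality in the smaller responses was not tested. Over the 234 falls the medians ran from -0.47 to -0.24, the smallest again in rhPBEF & VALI replicate 3.

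Single arrays moved the count of genes. It was 226, 256 and 260 without Control replicates 1, 2 and 3, 302 and 873 without VALI replicates 1 and 3, 299 and 280 without rhPBEF replicates 1 and 2, and 268, 229 and 1487 without rhPBEF & VALI replicates 1, 2 and 3. In all 12 such fits 201 of the 565 genes passed, 156 rises and 45 falls, and no gene of the 565 changed sign. Among the 15 steepest rises, Saa1 missed in 8 (adjusted p up to 0.0824, limma). For Mab21l3 no count of such fits is given here, and the rest passed in all 12. Of the 15 steepest falls, Gprin3 and Cdc42ep3 missed in 3 each, Grb14 in 7 and Myo5c and Tuft1 in 8 (adjusted p up to 0.104, limma). Others named here that missed in 5 or more, mostly without a Control array or replicate 1 or 2 of a treated group, were Ccl2, Ccl7, Ccl11, Ccl17, Cxcl14, Csf1, Il33, Il1r2, Il1rn, Clec4e, Slfn1, Slfn4, S100a8, S100a9, Tlr1, Tlr13, Tirap, Nfkbia, Nfkbib, Tnip1, Gbp2, Gbp3, Ifit3, Irgm1, Slc7a11, Slc39a14, Socs2, Stat5a, Parp9, Nadsyn1, Ereg, Reg3g, Zfp36, Ptges, Ptgir, Ltc4s, Lta4h, Bambi, Dnaic1, Cyp2s1, Slc6a15 and Lgi3 (adjusted p up to 0.125, limma). Myd88 missed in 2 and Mt2 and Nfkbiz in 1 each. Without both arrays high in muscle genes 455 genes passed.

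The size of a change also depended on the probe set. Of the 117 genes named here that passed, with Mab21l3 left aside, 52 had more than 1 probe set. In 28 of these another probe set gave a difference over 1.5 times larger or smaller than the value printed, or of the other sign. They were Btc, Cd44, Cebpd, Clec4e, Csf1, Cxcl1, Gprin3, Grb14, Il1rn, Lta4h, Marco, Myo5c, Nfkb2, Nfkbia, Nfkbiz, Osmr, Plet1, Ppp2r2b, Ptpn2, Slc39a14, Slc7a11, Slfn1, Socs2, Sod2, Stat5a, Tnfaip2, Tnfrsf9 and Zc3h12a. The lowest probe set was at -0.01 for Cd44 and Slfn1, 0.07 for Tnfaip2 and 0.08 for Plet1. For Btc and Grb14 the smaller falls were -0.49 and -0.13.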

How the data were processed

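The deposited table holds the authors' processed expression values per probe set, whose log2 scale was read from their range. The submitters' processing notes name MAS5 and GCRMA, with no role or version. Values lie between 2.99 and 15.02, with array medians of 7.00 to 7.07, and no further normalisation was applied. The number of arrays limits the precision. The 64 control probe sets were dropped. Of the other 45037, 34945 had 1 gene symbol, 932 several and 9160 none, and the probe set with the highest mean over the 12 arrays stood for each of 18193 genes. No low-value filter was used.

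All genes were fitted with a model of 4 group means in limma 3.58.1 in R 4.3.3 (lmFit, contrasts.fit, eBayes), with Benjamini-Hochberg adjustment over all genes and a threshold of 0.05. It was tested on simulated data. Errors are its SEs. Named genes also had a two-sided exact permutation test within ventilation status. The 44 gene lists (763 of 868 entries matched) and the groups of genes described were chosen with earlier results of these data known. Genes were named by rule: the 15 steepest rises and falls whose groups did not overlap in either status, the 5 steepest of each that passed only for the average, the 5 smallest interaction p, Nampt, and up to 6 members per list with the largest differences. Exceptions are stated. Lists were described by counts and medians, with no test. Promoter windows are RefSeq's (GRCm38.p6). Alternatives tried were scaling, a low-value filter, the variance model, array weights, the rule for probe sets, the model's terms, the replicate block and leaving out arrays.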

Additional observations from a re-analysis of the deposited data

Results flagged for a closer look

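Among the genes described in the report, Traf1 and Lrrfip1 were those in which every rhPBEF array moved one way and every rhPBEF & VALI array the other, each against the untreated mean of its own status. Traf1, an adaptor of TNF receptors, was lower by -0.51 without ventilation and higher by 0.38 with it, an interaction of 0.89. Lrrfip1, a nucleic acid-binding protein, was higher by 0.34 without and lower by -0.21 with ventilation, an interaction of -0.55. The unadjusted interaction p was 0.00166 and 0.00191, and the adjusted p was 0.998 for both (limma), so neither passed. Both patterns depend on the probe set. The other probe set of Traf1 was lower in both statuses, by -0.84 without and -0.13 with ventilation. Of the other probe sets of Lrrfip1, 1 gave 0.22 and 0.19 and 1 gave 0.10 and -0.06.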

How the results depend on the processing

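The averaged effect called 446 to 669 genes, against 565, with a low-value filter, centring, quantile normalisation, a variance trend with robust prior, the mean of probe sets, a replicate block, an additive model, or ventilation left out of the model. Replicate numbers are shared between groups, but deviations of same-numbered arrays correlated from -0.17 to 0.46 (7 of 18 pairs over 0.1, 6 of 12 arrays best with their own number), so the numbers were not taken as pairs. With the replicate block the average called 633, and 184, 45 and 0 without ventilation, with ventilation and for the interaction. Array weights gave 2170 (810 higher, 1360 lower), with 1030 without and 217 with ventilation. Centring gave 141 lower genes, and probe sets as units 514 higher ones. Fitted on their own 6 arrays, the comparisons without and with ventilation called 567 and 1 genes. Leaving out both arrays high in muscle genes gave 74 genes without ventilation and 2 for the interaction. The cause was not tested. Leaving out 1 array gave 226 to 1487 genes for the average (170 to 665 higher, 56 to 822 lower), 42 to 348 without ventilation, 14 to 396 with it and 0 to 4 for the interaction. In the refits of the average over genes, leaving aside probe sets as units and the fits on 6 arrays, none of the 565 genes that a refit tested changed sign, and Traf1, which had not passed, moved from -0.06 to between -0.14 (without Control replicate 3) and 0.01 (without Control replicate 2). Of the 565, 272 had over 1 probe set, and 35 of those had one of opposite sign. For 59 of them the mean without rhPBEF lay under 6.42, the 40th percentile of all probe sets, where signal limits the size of a fold.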
